A study of Homo sapiens with 8 samples.

Results

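The SW620 pair consists of 2 arrays, 1 labelled ABCB5-negative and 1 labelled ABCB5-positive, out of 8 arrays in the series. They were chosen by the cell line and population named in the labels, and every difference below is the positive array minus the negative array on the log2 scale. SW620 is an established human line that the labels describe as a lymph node metastasis of a colon carcinoma. The other 6 arrays are the same pair of populations from COLO741, HT29 and HCT116, lines labelled as colon carcinoma too, and they serve here as a guide to how far both arrays of a line differ. The design text of the series names SW480 at the place of SW620, and the sample labels were followed. All 8 populations came from cells grown in RPMI medium with serum and antibiotics and were separated by flow cytometry with an antibody against ABCB5, so the negative array is the remainder of the same line and not a separate control culture. Each line gave 1 array a side, and nothing states how many cultures or sorts lie behind an array. A SW620 difference therefore has no replicate and no test of its own.

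ABCB5 is a membrane transporter of the ATP-binding cassette family, known from melanoma and from stem cells of the skin and cornea as a marker of slowly cycling, drug-tolerant cells. The series title ties it to resistance against apoptosis, and the comparison asks which transcripts differ between cells with and without the protein on their surface. Carcinoma cells of the colon normally hold on to one another through E-cadherin, desmosomes and tight junctions, and lose part of this when they take up mesenchymal features. Macrophages and monocytes are phagocytes, recognised by Fc receptors, the NADPH oxidase that makes superoxide, lysozyme and class II antigen presentation. Chemokines such as CCL2 draw them into tumours, and both tumour cells and phagocytes can make these chemokines.

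ABCB5 itself was dim on both SW620 arrays, with a log2 level of 5.25 on the negative and 5.35 on the positive array. Both levels lie below the median of 5.74 of 360 probe sets for olfactory receptors, genes of the nose that stand here for background. The ABCB5 transcript thus gives no check of the SW620 sort, which selected on the protein. In HT29 it measured 5.36 and 5.24, in HCT116 5.40 and 5.69, and in COLO741 9.42 on the negative and 8.14 on the positive array. The ABCB5 difference of 0.10 in SW620 had a limma adjusted p of 0.905 against the other lines.

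Both SW620 arrays carried the marks of a colon carcinoma line with mesenchymal features. EPCAM, an adhesion protein of epithelia, measured 13.43 and 13.50 on the negative and positive arrays, and the keratin KRT8 14.42 and 14.58. VIL1, the villin of the brush border, measured 12.29 and 12.55. The mesenchymal filament gene VIM was high as well, at 13.60 and 13.43, against 7.08 to 8.37 in HT29 and HCT116. The intestinal factor CDX2 measured 9.01 and 9.02, KRT20, a keratin of mature colon cells, was at 6.71 and 6.67, and LGALS4, a galectin of colon epithelium, was at 8.38 and 8.17 against 13.94 to 14.05 in HT29. COLO741 went against its label on this point, with EPCAM at 6.43 and 5.36 and the melanocyte genes MLANA and PMEL at 13.24 to 14.49, so results that rest on that line as a guide are given with its own values.

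The SW620 arrays correlated at 0.994 across all probe sets, and the array medians were 8.08 for the negative and 8.03 for the positive array. Over 16910 genes the standard deviation of the difference was 0.237 in SW620, between 0.319 in COLO741 and 0.195 in HT29, with 0.148 in HCT116. The median SW620 difference over all genes was 0.018. In SW620, 88 genes were at least 2-fold higher on the positive array, which is 0.52% of genes, and 16 were at least 2-fold lower, which is 0.0946%. Higher genes also outnumbered lower ones in the other lines, at 231 against 44 in COLO741, 46 against 4 in HT29 and 4 against 1 in HCT116.

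**Figure D1:**
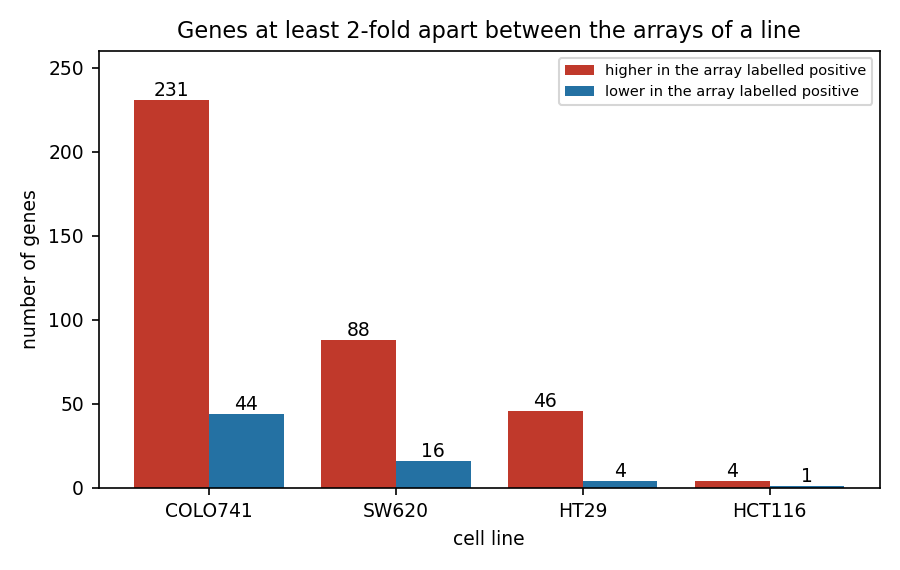
Number of genes at least 2-fold apart between both arrays of each cell line, with bars in red for genes higher and in blue for genes lower in the array labelled ABCB5-positive. SW620 has 88 higher and 16 lower genes, fewer than COLO741 and more than HT29 or HCT116.

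A gene was taken to stand out in SW620 when its difference was at least 1 in size, which is 2-fold, and larger in size than its difference in each of the other 3 lines. This held for 101 genes, 0.597% of those measured, of which 87 were higher (0.514%) and 14 lower (0.0828%). The remaining 3 genes 2-fold apart were GPX8 at 1.11, SLC14A1 at -1.59 and SYTL5 at -1.49, which differed more in HT29 or COLO741. The genes nearest the threshold were HKDC1, SPON2 and IGSF6 just outside, at 0.999, 0.99 and 0.99, and DEFA5, KRT23 and SLITRK6 just inside, at -1.01, 1.01 and -1.01.

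The higher and the lower genes differed in how bright they were. A level of 7.50, below which 95% of the olfactory receptor probe sets lie, is used here to call an array's value dim. Of the 87 higher genes, 33 were above it on both SW620 arrays, 31 on 1 array and 23 on neither. Of the 14 lower genes, 12 were above it on both arrays and 2, SLITRK6 and DLG2, on neither. Where the weaker array is dim, the fold is given as a bound, the brighter level against 7.50, and no fold is given where both are dim.

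**Figure D2:**
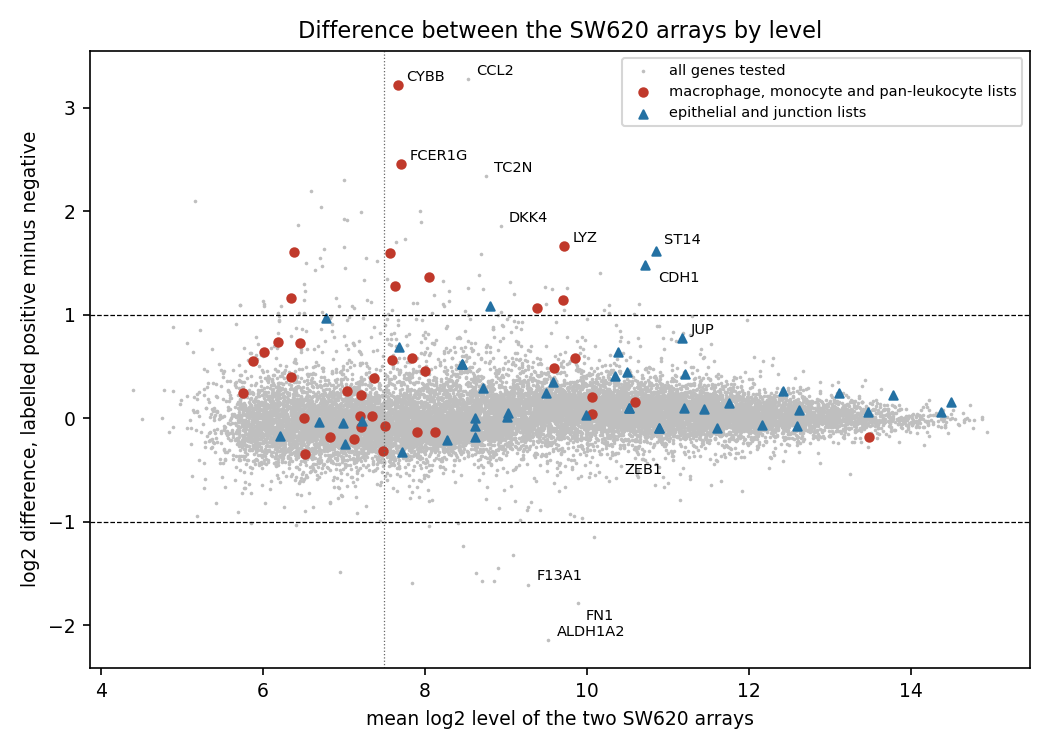
Difference between the SW620 arrays (log2, positive minus negative) of each of 16910 genes against its mean log2 level on both arrays, with phagocyte and leukocyte list members in red and epithelial and junction list members as blue triangles. The dashed lines mark 2-fold and the dotted line the dimness level of 7.50. CCL2 at 3.28 and CYBB at 3.22 lie highest and ALDH1A2 at -2.14 lies lowest.

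A linear model with limma asked whether the SW620 difference departed from the mean difference of the other 3 lines. It passed for 1 of 16910 genes, 0.00591%, after Benjamini-Hochberg adjustment at 0.05, while 1071 genes had an unadjusted p under 0.05. The model takes the spread of the other pairs for that of the single SW620 pair, so it tests a difference between lines and not the sort within SW620, and a gene that does not pass may still differ. The call did not survive without HT29 or without HCT116, where the lowest limma adjusted p was 0.0596 and 0.479.

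The gene called was CCL2, a chemokine that attracts monocytes. Its level was 6.89 on the SW620 negative array and 10.17 on the positive array, against 6.92 and 6.81 in HT29, 7.04 and 6.95 in HCT116, and 11.47 and 11.51 in COLO741. The SW620 positive array thus stood with COLO741, and the SW620 negative array with HT29 and HCT116, whose values are dim. The difference of 3.28 is at least 6.39-fold, and it exceeded the mean of the other lines by 3.33 ± 0.14 (SE; limma adjusted p = 0.0370).

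The 87 higher genes included members of the lists of phagocyte and other leukocyte genes, with CYBB, FCER1G and S100A8 differing most. CYBB, the catalytic subunit of the phagocyte NADPH oxidase, measured 6.06 on the negative and 9.28 on the positive array, at least 3.45-fold apart. On the other 6 arrays CYBB lay between 6.18 and 7.17, so that the SW620 positive array alone was bright. FCER1G, the signalling chain of Fc receptors, measured 6.48 and 8.93, at least 2.71-fold apart, against 6.21 to 7.17 elsewhere. LYZ, lysozyme, which breaks bacterial walls, measured 8.89 and 10.55, a 3.17-fold difference between bright values. LYZ is no phagocyte-only gene in these lines, since it measured 14.42 and 14.27 in HT29. MPEG1, the pore protein perforin-2 of phagocytes, measured 6.77 and 8.38, at least 1.84-fold apart, and CD14, the receptor for bacterial lipopolysaccharide, 7.37 and 8.74, at least 2.36-fold apart. CD14 was bright in HT29 too, at 8.41 and 8.46. FCGR2A, an Fc receptor for IgG, went from 5.77 to 6.93, both dim. None of these passed against the other lines, with limma adjusted p of 0.0712 for CYBB, 0.211 for FCER1G and LYZ, 0.366 for MPEG1 and 0.420 for CD14.

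The list of macrophage and monocyte genes held 30, of which 27 were measured and 23 passed the filter on low values. Of the 23, 6 were at least 2-fold higher, 9 at least 1.5-fold higher and 0 at least 1.5-fold lower, beside 0.52%, 1.79% and 0.639% of all genes. The median difference was 0.55 over the 23 and 0.27 over all 27 measured, beside 0.02 over all genes tested, and the same 23 had medians of -0.06 in COLO741, 0.01 in HT29 and 0.00 in HCT116. The passing members owe part of their place in the list to the array where they are high and the median over all 27 is free of that choice.

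The list did not move as a block. The complement genes C1QA, C1QB and C1QC, made mainly by tissue macrophages, had differences of -0.35, -0.20 and -0.32. SPI1, the transcription factor PU.1 that directs phagocyte development, measured 8.19 and 8.05, against 8.16 to 8.33 elsewhere. ITGAM, the integrin CD11b, measured 7.19 and 7.21, and the macrophage receptors MARCO and SIGLEC1 differed by -0.09 and 0.03. Between these and the high members lay CD163, a scavenger receptor, at 5.70 and 6.34, CSF1R, the receptor for the macrophage growth factor, at 7.32 and 7.88, TYROBP, an adaptor of immune receptors, at 9.35 and 9.84, and CD68, of lysosomes, at 9.57 and 10.15. Of the 27 measured, 5 were above 7.50 on the negative and 9 on the positive array, and the median level was 6.69 on the negative and 7.03 on the positive array, against 6.53 to 6.78 on the other 6.

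Some leukocyte genes beyond the phagocyte list were higher too. CD53, a tetraspanin of white blood cells, measured 6.99 and 8.26, at least 1.70-fold apart. CYTIP, which regulates leukocyte adhesion, measured 5.58 and 7.19. LAPTM5, a lysosomal membrane protein of blood cells, was bright on both arrays at 8.85 and 9.91. PTPRC, the leukocyte antigen CD45, went from 4.87 to 6.96 and stayed dim, and its mean kept it out of the genes tested. All 18 genes of the pan-leukocyte list were measured, with a median of 0.33, and of the 16 that passed the filter 4 were at least 2-fold higher and 0 lower, beside 0.52% and 0.0946% of all genes. Other members differed little or the other way, with LCP1, an actin bundler, at 13.57 and 13.39, WAS, an actin regulator, at -0.14, SASH3 at -0.08 and RAC2, a GTPase of the phagocyte oxidase, at 0.04. Against the other lines the limma adjusted p was 0.225 for CD53 and 0.795 for LAPTM5. The list medians elsewhere were -0.01 in COLO741, 0.05 in HT29 and -0.01 in HCT116.

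Markers of other blood and stromal cells gave mixed values. Of 19 tested genes of T, B and NK cells 0 were 2-fold higher, beside 0.52% of all genes. The T cell receptor chains CD3D and CD3E differed by 0.14 and -0.21. The B cell antigen MS4A1, dim and outside the genes tested, went from 5.62 to 6.72. Among granulocyte genes S100A8, a subunit of calprotectin, measured 5.50 and 7.69 against 5.40 to 5.63 elsewhere, and S100A12, a related protein, 5.39 and 7.16, while MPO, myeloperoxidase, and CSF3R, the receptor for the granulocyte growth factor, differed by -0.34 and 0.01. PPBP, a chemokine precursor of platelets, measured 6.17 and 7.83, and PECAM1, an adhesion protein of endothelium, platelets and leukocytes, 6.77 and 7.90, though a second probe set of PECAM1 differed by -0.83 at dim levels. The endothelial genes CDH5 and VWF differed by -0.10 and -0.03, and the 13 tested fibroblast genes had a median of -0.04, with COL1A1 at -0.15, TAGLN at 0.46 and 0 of them 1.5-fold apart. Among all genes 1.79% were 1.5-fold higher and 0.639% lower, so a count of 0 in this short list is near that share. In RNA of a sorted population, more cells of a type and more RNA per cell cannot be told apart, and the part of other cell types in these results was not tested.

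Single bright arrays occurred in other lines as well. In the SW620 positive array 47 genes were above 7.50 on that array only, and 12 of them were also at least 2-fold over their partner array, namely CD53, CYBB, FCER1G, FPR3, IL2RG, MPEG1, PECAM1, PPBP, S100A8, CST1, MUCL1 and RLN2. The last 3, a cystatin, a small mucin-like protein and the hormone relaxin, were higher by 1.08, 1.34 and 1.38. Of those 12, 5 belonged to the leukocyte lists. Nothing is read from this count, because the 12 were picked by their level on this array. The SW620 negative array had 25 such genes with 0 at 2-fold. The COLO741 positive array had 75, with 31 at 2-fold, of which 0 were in the leukocyte lists. The COLO741 negative array had 53, with 7 at 2-fold. In HT29 the negative array had 42 with 2 at 2-fold and the positive array 27 with 1. In HCT116 the negative array had 23 and the positive array 56, both with 0 at 2-fold.

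Genes of lipid handling and lysosomes in phagocytes, and others known from such cells, stood out in a few members. OLR1, a scavenger receptor for oxidised lipoprotein, measured 5.51 and 7.38, and PLA2G7, a lipase that cleaves oxidised phospholipids, 5.85 and 8.16, while HCT116 had PLA2G7 at 8.85 and 8.84. SRGN, the proteoglycan core of secretory granules, measured 7.01 and 8.91, at least 2.66-fold apart, against 6.72 to 8.34 elsewhere. CTSL, a lysosomal protease, was bright on both at 7.91 and 9.17, 2.39-fold apart, against 7.94 to 12.55 elsewhere. KYNU, kynureninase of tryptophan breakdown, went from 5.70 to 7.75 but stood at 12.89 and 12.86 in COLO741. The lists of lipid handling and lysosome genes and of phagocyte cytokines had medians of 0.07 and 0.04, with 2 of 21 (OLR1 and CTSL) and 1 of 19 tested members (IL18) 2-fold higher, beside 0.52% of all genes. SPP1, osteopontin, was lower, at 8.20 and 7.43, and IL18, a cytokine matured by caspase-1, went from 5.93 to 7.48.

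Promoters of 3 of these genes are shown because they are known from phagocytes and leukocytes and share a short purine-rich motif of the kind ETS factors such as PU.1 can bind. The 120 bases before each gene's start come from RefSeq (GRCh38.p14), in the direction of transcription, with GAGGAA or its reverse complement TTCCTC in capitals.
CYBB, chrX:37779939-37780058, plus strand: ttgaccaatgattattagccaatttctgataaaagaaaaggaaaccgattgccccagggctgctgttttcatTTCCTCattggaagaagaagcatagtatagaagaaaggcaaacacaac
CD14, chr5:140633176-140633295, minus strand: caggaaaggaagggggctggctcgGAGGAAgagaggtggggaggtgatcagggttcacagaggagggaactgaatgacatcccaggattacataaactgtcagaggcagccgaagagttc
CD53, chr1:110873028-110873147, plus strand: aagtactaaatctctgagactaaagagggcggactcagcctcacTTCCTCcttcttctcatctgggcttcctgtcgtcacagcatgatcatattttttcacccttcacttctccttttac
The motif starts 48 bases before the start of CYBB, 96 before that of CD14 and 76 before that of CD53. In the 250 bases before the start it was present on either strand for 24 of 55 higher genes with a promoter in the table (43.6%) and for 2 of 10 lower genes (20%). Among genes tested the share was 29.6%, and among all promoters 23.6%. A match of these letters is a description and does not show binding.

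Chemokines were led by CCL2. CXCL16, a scavenger receptor and chemokine with a membrane-bound form, measured 6.89 and 8.62, at least 2.17-fold apart, against 7.75 to 11.67 elsewhere. CCL24, an attractant of eosinophils, measured 7.97 and 9.36, 2.61-fold apart, and lay at 7.28 to 7.53 elsewhere. CXCL5, an attractant of neutrophils, measured 7.58 and 8.60, and CCL5, which draws T cells, 7.04 and 8.05. In 4 of these 5 genes, all but CXCL16, the SW620 positive array was above all arrays of HT29 and HCT116. The list held 31 chemokines, of which 29 were measured and 22 passed the filter, with 5 at least 2-fold higher and 0 lower, beside 0.52% and 0.0946% of all genes. The median was 0.08 over the 22 and -0.01 over the 29, so most chemokines did not share the difference. CXCL8, the neutrophil chemokine made by many carcinomas, measured 9.23 and 8.93, and CXCL1 8.55 and 8.46. The receptor CCR1 was higher by 1.03 but dim on both arrays, at 6.22 and 7.25. CXCR4, another receptor, was higher by 1.09, at 7.69 and 8.78. In HT29 CXCR4 measured 10.97 and 10.3, a difference of -0.67, and in HCT116 it differed by 0.62.

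Among the class II antigen presentation genes tested, those of HLA-DP differed most. Any class II gene read only by probe sets naming several genes was set aside and is not covered. HLA-DPA1, the alpha chain of HLA-DP, measured 6.94 and 8.95, at least 2.73-fold apart, against 6.51 to 7.62 elsewhere, and HLA-DPB1, its beta chain, 7.08 and 8.12. The loading factors HLA-DMA and HLA-DMB both differed by 0.15, and CIITA, the master regulator of the class, by 0.02. Of 7 tested class II genes 2 were 2-fold higher, beside 0.52% of all genes, and the limma adjusted p of HLA-DPA1 was 0.111. Both HLA-DP genes are polymorphic members of a family of close copies, so their probe sets may not separate them from related genes.

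Other higher genes included members of the epithelial list. CDH1, E-cadherin, which joins epithelial cells, measured 9.98 on the negative and 11.46 on the positive array, 2.79-fold apart. Its level in HT29 was 13.25 and 13.19, in HCT116 11.26 and 11.19 and in COLO741 7.35 and 6.95, so the SW620 positive array reached the level of HCT116. ST14, matriptase, a membrane protease of epithelia, measured 10.04 and 11.66, 3.08-fold apart, against 13.01 and 13.18 in HT29, 12.27 and 12.20 in HCT116 and 7.66 and 7.79 in COLO741. Against the other lines the difference of CDH1 was larger by 1.66 ± 0.19 (SE; limma adjusted p = 0.211) and that of ST14 by 1.55 ± 0.16 (SE; limma adjusted p = 0.148). Outside that list, TC2N, a protein with C2 domains, measured 7.58 and 9.92, 5.06-fold apart, while HT29 had 12.33 and 12.16 and HCT116 10.14 and 10.11. GALNT3, which starts mucin-type O-glycosylation, measured 6.08 and 8.0 against 8.18 to 11.83 elsewhere. ELOVL7, a fatty acid elongase, measured 9.13 and 10.39 against 10.21 to 11.71 elsewhere. For TC2N, ST14, CDH1, GALNT3 and ELOVL7 alike the SW620 negative array was below every array of HT29 and HCT116.

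**Figure D3:**
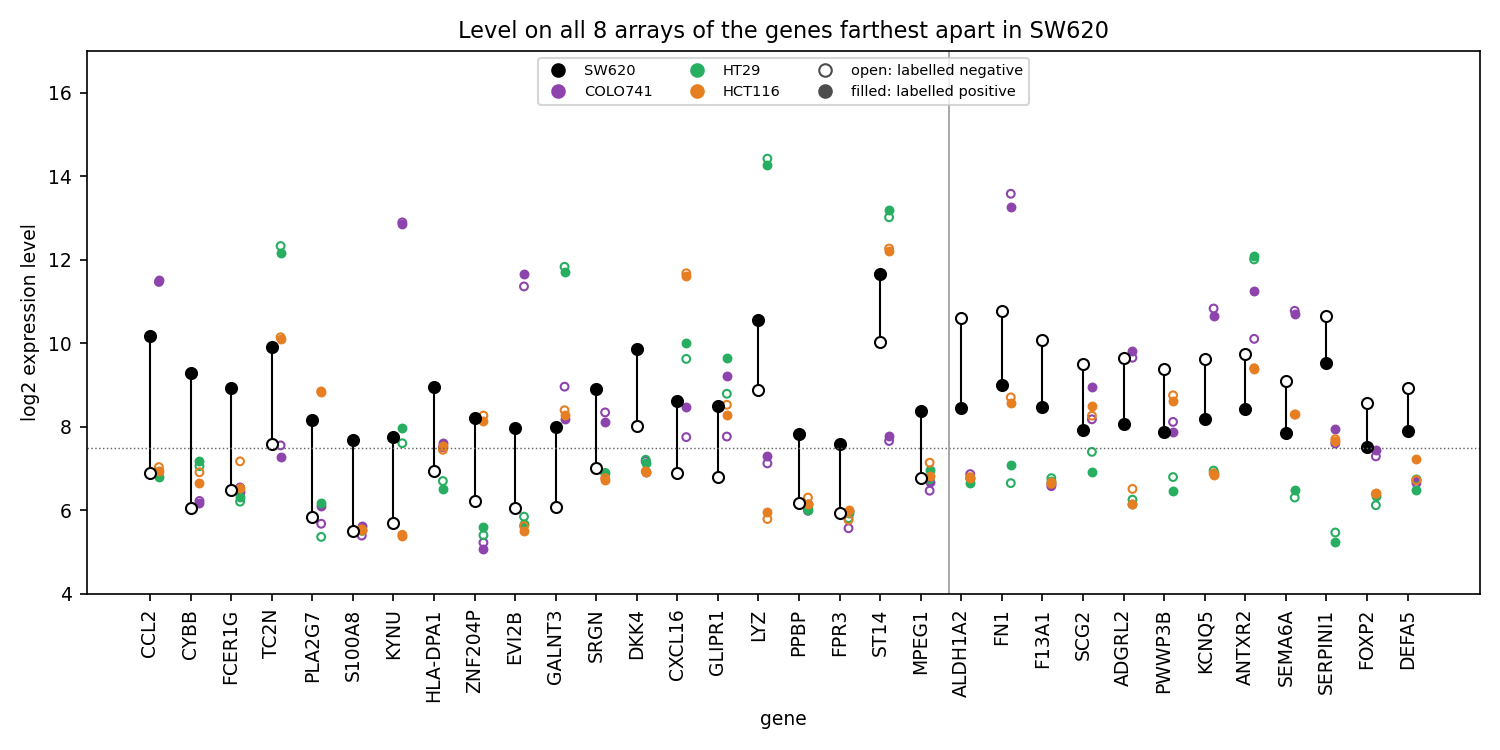
Log2 level on all 8 arrays of the genes farthest apart in SW620, the 20 higher ones left of the grey line and the 12 lower ones right of it, with SW620 in black, the other lines in colour, open points for arrays labelled negative and filled points for arrays labelled positive. The dotted line marks 7.50. CYBB and FCER1G are bright on the SW620 positive array alone, while the SW620 pairs of ST14 and TC2N lie below HT29 and HCT116.

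Membrane mucins, tetraspanins and keratins showed the same direction in several members. MUC1, the mucin of the apical surface, measured 9.46 and 10.87, 2.65-fold apart, and 7.70 to 8.10 elsewhere, so both SW620 arrays were above the other lines. TSPAN1 measured 8.39 and 9.70, 2.49-fold apart, and TSPAN8, another tetraspanin of gut epithelium, 5.93 and 7.36, both dim. KRT5, a basal keratin, measured 8.50 and 9.69, and KRT23 10.08 and 11.09. ANPEP, an aminopeptidase of the brush border and of myeloid cells, measured 7.68 and 8.91, 2.35-fold apart. In a list of mucins and tetraspanins drawn up with these values in view, 4 of 27 tested members were 2-fold higher and 0 lower, with TSPAN5 at -0.70. The shares of all genes were 0.52% and 0.0946%. As the list was built from these values, nothing is read from its counts.

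The full epithelial list put these genes in proportion. All 21 measured members passed the filter, and their median was 0.07. Of them 13 were above 0 and 2, ST14 and CDH1, at least 2-fold higher, beside 54% and 0.52% of all genes. GRHL2, a transcription factor that maintains epithelia, went from 6.29 to 7.26 and stayed dim, while HT29 had 11.35 and 11.71. EPCAM, KRT18 and CLDN3 differed by 0.07, 0.06 and -0.09. In a list of desmosome and tight junction genes, also drawn up with these values in view, 18 of 24 tested genes were above 0, beside 54% of all genes. Its median was 0.10. Nothing is read from this count or median, because the list was built from these values. MARVELD3, a tight junction protein, measured 8.26 and 9.35, JUP, plakoglobin of desmosomes and adherens junctions, 10.79 and 11.56, and PKP3, a desmosomal plakophilin, 10.06 and 10.70. DSP, desmoplakin, and TJP1, a scaffold of tight junctions, differed by -0.08 and -0.06. The phagocyte genes CYBB, FCER1G, LYZ, MPEG1 and CD14 were 2-fold higher on the same array as these epithelial genes, and their part in the result was not tested.

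Promoters of 4 genes higher on the positive array are shown, those of the mucin MUC1, the junction gene JUP, and GALNT3 and ELOVL7, which stand in none of the epithelial lists, because each holds the E-box that repressors of epithelial genes such as ZEB1 can bind. The 120 bases before each gene's start are again from RefSeq (GRCh38.p14), with CAGGTG or its reverse complement CACCTG in capitals.
ELOVL7, chr5:60844270-60844389, minus strand: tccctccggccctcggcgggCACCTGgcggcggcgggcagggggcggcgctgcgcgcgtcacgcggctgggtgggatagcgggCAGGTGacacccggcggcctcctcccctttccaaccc
GALNT3, chr2:165794248-165794367, minus strand: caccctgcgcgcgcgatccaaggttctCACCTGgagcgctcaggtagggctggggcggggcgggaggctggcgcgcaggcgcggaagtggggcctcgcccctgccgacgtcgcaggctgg
MUC1, chr1:155192916-155193035, minus strand: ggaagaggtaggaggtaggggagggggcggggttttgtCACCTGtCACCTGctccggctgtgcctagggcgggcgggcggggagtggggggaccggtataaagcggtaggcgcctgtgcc
JUP, chr17:41785977-41786096, minus strand: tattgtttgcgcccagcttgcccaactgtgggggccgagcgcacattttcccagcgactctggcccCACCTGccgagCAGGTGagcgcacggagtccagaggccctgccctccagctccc
The E-box starts 100 and 37 bases before the start of ELOVL7, 93 before that of GALNT3, 82 and 75 before that of MUC1, and 54 and 43 before that of JUP. Within 250 bases it was present for 21 of 55 higher genes (38.2%) and for 4 of 10 lower genes (40%). The share was 21.7% among genes tested and 17.5% among all promoters. The few lower genes thus held the motif about as often as the higher ones.

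Among regulators of the epithelial and mesenchymal states, ZEB1, a repressor of CDH1, measured 10.65 and 10.07, lower by 0.58, while COLO741 differed by 2.39 the other way. ZEB2, a related repressor, went from 6.60 to 7.40, both dim, and a second probe set of ZEB2 differed by -0.21. SNAI2, a repressor of the Snail family, measured 11.33 and 11.62, and TCF4, a factor of the E-protein family, 7.62 and 6.70. The regulators therefore did not move one way.

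On the lower side the largest difference was that of ALDH1A2, which makes retinoic acid from retinal. ALDH1A2 measured 10.59 on the negative and 8.45 on the positive array, 4.41-fold apart, and 6.66 to 6.87 on the other 6 arrays. Both SW620 arrays were thus above every other array, the positive array less so. The limma adjusted p against the other lines was 0.0791. Other retinoid genes did not follow: ALDH1A1 and ALDH1A3, its paralogs, differed by -0.11 and 0.14. CRABP2, a carrier of retinoic acid, measured 9.51 and 10.25. CYP1B1, in a retinoid list drawn up with these values in view, went the other way, from 6.50 to 8.05, at least 1.47-fold. In HT29 CYP1B1 measured 10.72 and 10.62.

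Of the other genes 2-fold lower, FN1 had the next largest difference. FN1, fibronectin of the extracellular matrix, measured 10.78 and 9.0, 3.45-fold apart, against 13.58 and 13.26 in COLO741, 8.70 and 8.56 in HCT116 and 6.65 and 7.09 in HT29. F13A1, the A subunit of clotting factor XIII, which crosslinks fibrin and is also known from macrophages, measured 10.08 and 8.48, 3.05-fold apart, against 6.58 to 6.77 elsewhere. ANTXR2, an anthrax toxin receptor that binds matrix, measured 9.75 and 8.43 and differed by 1.14 the other way in COLO741. COL8A1, a short-chain collagen, measured 7.94 and 6.95. Matrix genes as such did not share a direction, since VCAN, a proteoglycan of the matrix, was among the higher genes at 5.86 and 7.16, both dim. Against the other lines the limma adjusted p was 0.420 for FN1 and 0.111 for F13A1.

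The wider list of mesenchymal and invasion genes was mixed. Of 28 members, all tested, 16 were above 0, near the 54% of all genes, and 4 were at least 1.5-fold higher and 2 at least 1.5-fold lower, beside 1.79% and 0.639%. The median was 0.13, beside 0.24 in COLO741, 0.12 in HT29 and 0.02 in HCT116. TGM2, a transglutaminase that crosslinks proteins, measured 9.15 and 9.98, MMP9, a matrix protease, 7.61 and 8.39, and PLAUR, the urokinase receptor, 8.84 and 9.41. TGFB2, a cytokine that drives mesenchymal change, measured 8.45 and 7.66, and SPARC 7.34 and 6.84. VIM differed by -0.16.

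Several lower genes are best known from neurons or neuroendocrine cells. SCG2, secretogranin of dense-core granules, measured 9.49 and 7.92, 2.98-fold apart, KCNQ5, a potassium channel, 9.63 and 8.19, 2.73-fold apart, and SERPINI1, neuroserpin, 10.66 and 9.52, 2.21-fold apart. FOXP2, a transcription factor of brain and gut, measured 8.57 and 7.53, and CHGB, chromogranin B, 9.70 and 8.85. For SCG2, SERPINI1, FOXP2 and CHGB the SW620 negative array was the brightest of all 8. ADGRL2, an adhesion receptor of the latrophilin family, measured 9.64 and 8.07, and SEMA6A, a semaphorin of axon guidance, 9.09 and 7.86. A neuronal list drawn up with these values in view had 6 of 23 tested genes at least 2-fold lower, beside 0.0946% of all genes, 16 below 0, beside 7770 of 16910, and a median of -0.16. Since the list was built from these values, nothing is read from its counts. SYT1, ENO2 and CHGA, which mark the same cells, differed by 0.05, 0.15 and -0.10.

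DKK4, a secreted inhibitor and target of Wnt signalling, measured 8.01 on the negative and 9.86 on the positive array, 3.62-fold apart, and 6.92 to 7.21 on the other 6 arrays. Its limma adjusted p was 0.0961. DKK1, another inhibitor of the family, measured 11.07 and 10.63. The 22 Wnt targets had a median of 0.07 with DKK4 the 1 member at 2-fold, beside 0.52% of all genes 2-fold higher. For intestinal stem cell markers the median was 0.02, with PROM1, the surface antigen CD133, at 10.13 and 10.55, EPHB3, a Wnt-dependent receptor, at 9.70 and 10.16 and SLC12A2 at 12.63 and 12.21. DEFA5, a defensin of Paneth cells at the crypt base, measured 8.92 and 7.91 against 6.49 to 7.23 elsewhere.

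Genes of G2 and mitosis were slightly higher on the positive array. All 29 measured members were above 0, beside 54% of all genes, with a median of 0.23. Of them 0 were 2-fold higher, beside 0.52% of all genes. CDC25C, a phosphatase that starts mitosis, measured 9.35 and 9.97, HJURP, which deposits the centromeric histone, 11.14 and 11.72, CDK1, the mitotic kinase, 12.03 and 12.55, and AURKA, a kinase of the spindle poles, 12.43 and 12.89. The list medians in the other lines were 0.33 in COLO741, 0.16 in HT29 and 0.06 in HCT116, so SW620 was not apart. For DNA replication and S phase genes the SW620 median was 0.01.

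Targets of ATF4, the transcription factor of amino acid and endoplasmic reticulum stress, were higher by a small margin. Of 46 tested members 41 were above 0, beside 54% of all genes, and 4 were at least 1.5-fold higher, beside 1.79%. The median was 0.13, against 0.00 in COLO741, -0.02 in HT29 and -0.01 in HCT116. DDIT4, an inhibitor of mTOR, measured 7.52 and 8.71, 2.28-fold apart, PHGDH, the first enzyme of serine synthesis, 10.02 and 10.81, and ASNS, asparagine synthetase, 9.75 and 10.45. VEGFA, the vascular growth factor, measured 8.69 and 9.57. ATF4 itself differed by 0.03, and its targets ATF3 and GDF15 by -0.30 and -0.15. The unfolded protein response list had a median of 0.08 and the hypoxia and glycolysis list 0.08, where EGLN3, an oxygen sensor, measured 10.14 and 10.88.

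Interferon-stimulated genes had a median of 0.17 in SW620, between 0.25 in HT29 and 0.00 in HCT116, with 0.21 in COLO741. Of 31 tested members 23 were above 0, beside 54% of all genes, and 4 were at least 1.5-fold higher, beside 1.79%. At 2-fold there were 0, beside 0.52% of all genes 2-fold higher. IFIH1, a sensor of double-stranded RNA, measured 8.05 and 8.83, and IFITM1, which hinders virus entry, 6.57 and 7.52. ISG15 and IRF7 differed by -0.07 and -0.08. Output genes of MAP kinase signalling leaned the other way, with a median of -0.10 and 4 of 16 above 0, beside 54% of all genes. EGR1, an immediate early factor, measured 11.55 and 10.99.

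Genes of cell death and drug transport, to which the series title points, differed by small amounts. The 15 tested anti-apoptotic genes had a median of 0.12, with 11 above 0, beside 54% of all genes, and 0 at 1.5-fold. BIRC5, survivin, measured 11.55 and 11.78. The 29 pro-apoptotic genes had a median of 0.00, with HRK at 10.07 and 9.58 and BIK at 8.18 and 8.59, both of the BH3-only group. Of 21 tested ABC transporters 0 were 1.5-fold apart and the median was 0.03. Among all genes 1.79% were 1.5-fold higher and 0.639% lower, so counts of 0 in these short lists are near that share. ABCB1, the multidrug pump P-glycoprotein, measured 8.50 and 8.01, and ABCG2, a pump of stem-like cells, 5.89 and 6.03, both dim.

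**Figure D4:**
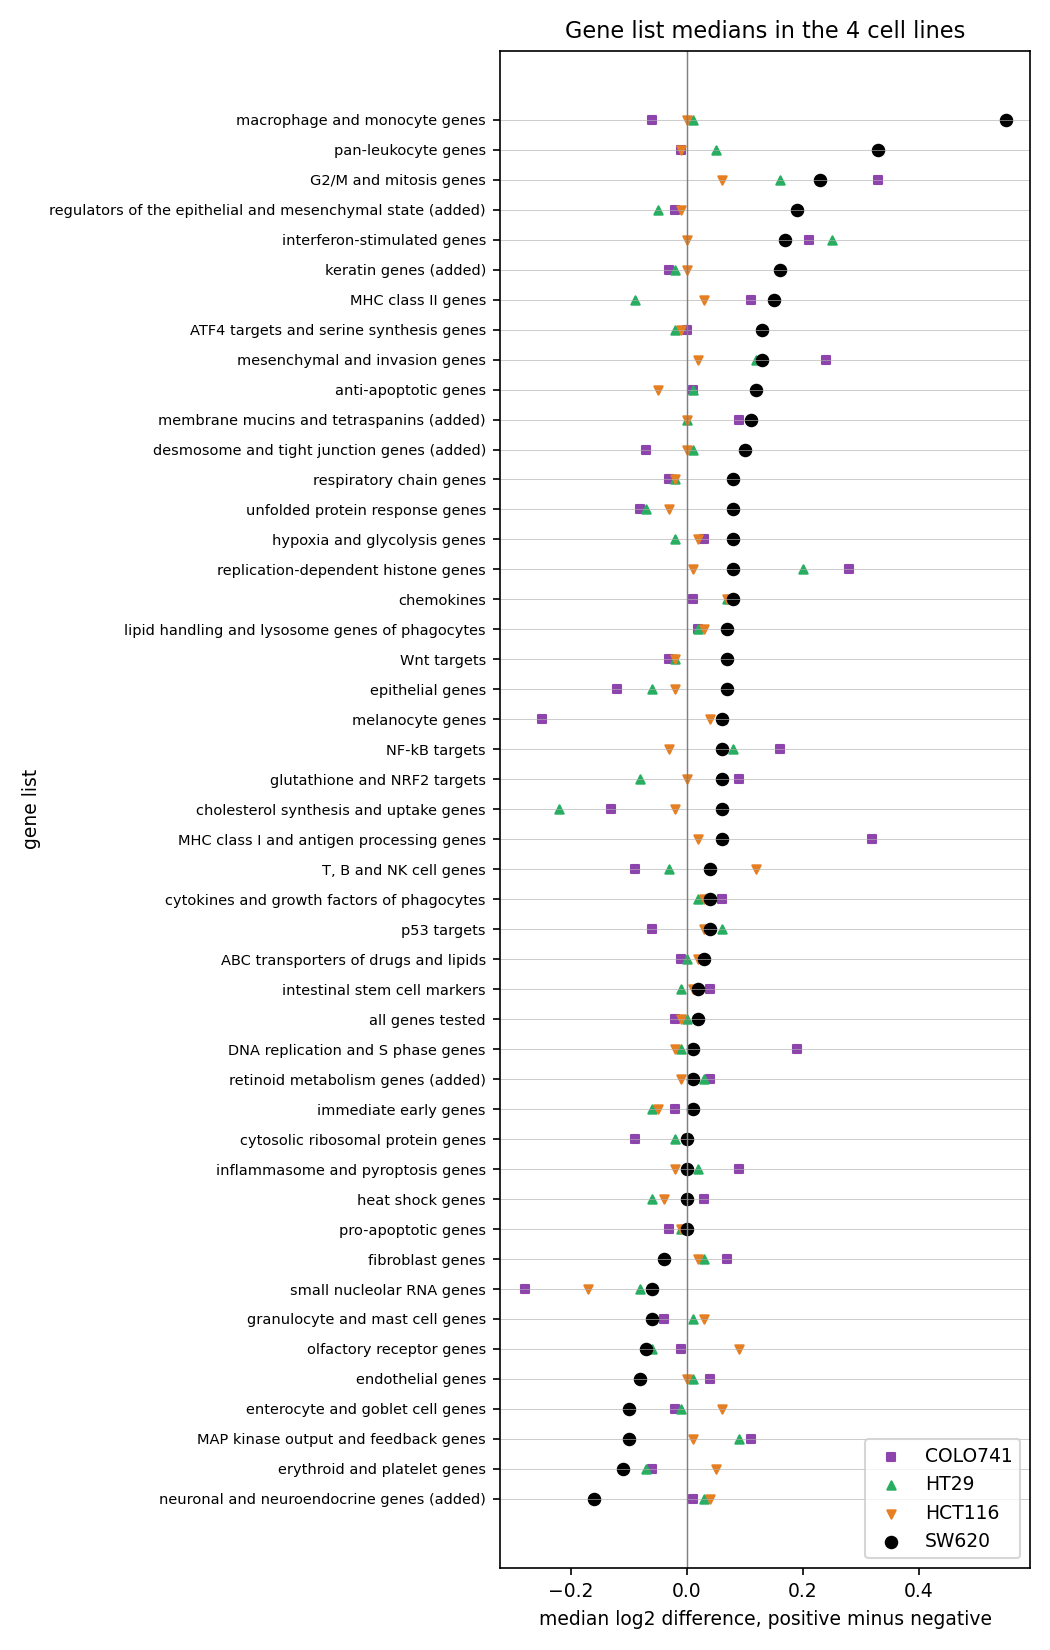
Median difference (log2, positive minus negative) of each gene list in SW620, as black circles, and in COLO741, HT29 and HCT116, as coloured symbols, with lists ordered by the SW620 median. The SNORD116 list, with 4 tested members, is not drawn. Among the lists drawn, over members that passed the filter, the macrophage and monocyte list has the highest SW620 median, 0.55. Its medians in the other lines lie between -0.06 and 0.01. Over all measured members its SW620 median is 0.27, below the 0.33 of the pan-leukocyte list.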

How the data were processed

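Transcript levels of sorted cells were read on Human Gene 1.0 ST arrays. The deposited values are log2 expression levels made by the authors with Affymetrix Expression Console, per the submitters' processing notes. For that program no version or normalization is given in the sources used here, and the log2 scale was read from the range of 2.99 to 15.24. Array medians were 8.03 to 8.10, and no further normalization was applied.

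Probe sets naming 1 gene (19460 of 33297) were kept, 1754 naming several genes and 12083 unnamed ones were set aside, and the probe set with the highest mean stood for each of 18417 genes. Symbols were updated through RefSeq (GRCh38.p14). Genes with a mean below the olfactory receptor median were left out, leaving 16910. The SW620 difference was set against the other pairs with limma 3.58.1 in R 4.3.3 (2 residual and 3.12 prior degrees of freedom). The model was tried on simulated data, where it did not recover 2-fold changes.

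Genes named were drawn from ABCB5, cell type markers, the 3 largest of each list and the 20 largest differences per direction that stand out. The last had to be above the 95th percentile on the brighter array and were filled from 1.5-fold on the lower side. Not all of these are described above. Those left out include ZNF204P at 1.99, EVI2B at 1.92, GLIPR1 at 1.70 and PWWP3B at -1.50. Other genes were named after their values were seen. The comparison, the 40 lists and the rules were chosen with earlier results of these data known, and 7 further lists, of junctions, mucins and tetraspanins, keratins, neuronal genes, retinoid genes, SNORD116 and state regulators, were added with SW620 values in view. Alternatives were other normalizations, filters, fold thresholds and summaries, and leaving out each other line.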

Additional observations from a re-analysis of the deposited data

Results flagged for a closer look

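CCL2 differed between lines under the same contrast. Its SW620 difference of 3.28 exceeded the mean difference of COLO741, HT29 and HCT116 by 3.33 (limma adjusted p = 0.0370), and those lines differed by 0.04, -0.11 and -0.08.

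Probe sets outside the comparisons, because they name no gene or several genes, also carried differences. Of 13837 such probe sets, 49 were at least 2-fold apart in SW620, beyond the other pairs and above 7.50 on the brighter array, with 20 higher and 29 lower. Among 16910 genes tested the same conditions held for 33 higher and 12 lower genes above 7.50 on both SW620 arrays. They also held for 31 higher genes above 7.50 on 1 array. Nothing is read from the count of 49. Probe set 8021635 had the largest difference, from 6.60 to 9.97 or 3.37, and probe set 8178199 went from 8.0 to 10.0. The lowest were probe sets 7895286 at -1.72 and 7893874 at -1.57. Probe set 7895286 also differed by -1.38 in HCT116.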

How the results depend on the processing

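The count of 101 genes that stand out was 57 with the filter raised to 7.50, 350 at a 1.5-fold threshold and 27 at 3-fold. It was 97 after quantile normalization, 97 with each pair centred, 108 with a loess curve removed, 108 without a filter, 102 with the mean of a gene's probe sets, 104 against a percentile of the noise, and 101 to 103 with 1 of the other lines left out. Of the 101 genes, 91 were shared after quantile normalization and 94 after loess. The limma count of 1 became 0 after loess (lowest adjusted p 0.0607) and by ordinary least squares (0.382), and 0 to 1 with a line left out, at 0.0478 without COLO741, 0.0596 without HT29 and 0.479 without HCT116. In the settings with 0 calls, 980 (loess), 1098 (least squares), 776 (without HT29) and 708 (without HCT116) genes had an unadjusted p under 0.05. The cause was not tested. Of 160 values of 40 named genes under other settings, 159 moved little and 0 changed sign, and CCL2 measured 3.17 after quantile normalization. Of 282 list medians under other settings, 219 moved little and 59 moved more. The other 4 changed sign: granulocyte genes at 0.04 and chemokines at -0.01 without a filter, and ABC transporters at -0.01 after quantile normalization and -0.01 after loess. Every difference was taken within its cell line, so the reported model is already paired by line. No paired analysis was possible because no block beyond the line exists, each group having 1 array with the same replicate number. Precision is limited by the number of arrays and, for dim genes, by signal near background.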

Other observations

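At the beta-globin locus on chromosome 11, 4 neighbouring genes were higher on the SW620 positive array. HBE1, embryonic epsilon-globin, measured 9.76 and 10.78. The olfactory receptor genes next to it in RefSeq order measured 7.50 and 8.44 for OR51B4, 7.23 and 7.93 for OR51B2, and 7.38 and 8.17 for OR51B5. All 4 genes were brighter in HCT116, with HBE1 at 12.92 and 12.90 and OR51B4 at 12.10 and 11.96. Of 15 measured genes in a window around HBE1, 4 were at least 1.5-fold higher, beside 1.79% of all genes, and 9 were above 0, near the 54% of all genes, with the adult genes HBB and HBD at 0.05 and -0.12. The window was chosen after its values were seen, and OR51B genes are a family of close copies.

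Small nucleolar RNAs of the imprinted SNORD116 cluster were mostly dim in SW620. In COLO741 SNORD116-14 measured 12.18 and 11.56 and SNORD116-15 12.65 and 12.15, levels that raised the means used by the filter. On the SW620 arrays SNORD116-15 went from 6.72 to 7.86 and SNORD116-14 from 4.11 to 6.21. Of 20 measured members 4 passed the filter and 1 exceeded 7.50 in SW620. The median over all 20 was 0.29 in SW620, and the near-identical copies may not be separated by their probe sets.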
